A study of Mus musculus with 27 samples.

Results

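Gpnmb and 9 genes that are commonly used to mark macrophages (Cd68, Adgre1, Csf1r, Cx3cr1, Lyz2, Trem2, C1qa, C1qb and Mrc1) were followed in the colonic epithelium of mice given the dioxin TCDD, a ligand of the aryl hydrocarbon receptor (AhR). They were taken by symbol and make up 10 of the 46078 gene rows of the count tables. Gpnmb was chosen by its level across the doses in these same counts, and the other 9 were set beside it to see whether they differed with it. Their levels in the 9 groups are therefore given as a description, with fold changes and standard errors and without p-values, and tests are kept for genes that were not used in that choice.

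The data are RNA-seq read counts of 27 male C57BL/6 mice, whose colonic epithelium had been scraped off. Mice were 28 days old at the start and 56 days old at the end, and were gavaged every 4 days for 28 days, 7 times in all. One group of 3 received sesame oil vehicle, and 8 groups of 3 received TCDD in that oil, at 30, 10, 3, 1, 0.3, 0.1, 0.03 or 0.01 μg/kg. No mouse carried a transgene or deletion according to the labels. A scraping takes up whatever lies under the epithelium as well, and in bulk RNA fewer cells of a type and less RNA per cell cannot be told apart.

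Counts on genes totalled 9305441 to 14371035 per mouse (median 11651026), and levels are given in CPM, that is, counts scaled to the size of each library. The 11 epithelial genes checked against the tissue label, such as Krt8 and Epcam, summed to 13650 to 13741 CPM in vehicle-treated mice and 13428 to 15697 CPM at 30 μg/kg, and every mouse at 3 and 10 μg/kg was above vehicle (15691 to 17652 and 14877 to 18582 CPM). The 9 macrophage genes other than Gpnmb together held 22.2 to 29.5 CPM in vehicle-treated mice, so the values of these genes, and those of Gpnmb, rest on few reads. Index barcodes recur among the libraries, and no label names a set, pool or run. Here the first library with a barcode by mouse number was put in a first index set, and the next in a second. Mouse number rises with dose, so this second set holds the mice at 3, 10 and 30 μg/kg and 2 of the 3 at 1 μg/kg. Set and dose can hardly be separated.

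Macrophages of the gut wall descend largely from blood monocytes and live mainly in the lamina propria under the epithelium, where they take up dying cells and bacteria. Gpnmb encodes a transmembrane glycoprotein of lysosomes and the cell surface, and is abundant in lipid-laden macrophages, melanocytes and osteoclasts; transcription factors of the MiT/TFE family, which also govern lysosomal genes, drive it. Among the other genes, Csf1r encodes the receptor for the growth factors CSF1 and IL-34, Cx3cr1 the receptor for fractalkine, and Trem2 a lipid-sensing receptor. Adgre1 encodes the F4/80 antigen and Mrc1 the mannose receptor CD206. Cd68 encodes a lysosomal glycoprotein, Lyz2 lysozyme, and C1qa and C1qb 2 of the chains of complement C1q.

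In the GRCm38 build, Gpnmb (ENSMUSG00000029816) lies on the plus strand of chromosome 6 from 49036546 to 49070929, with 13 merged exons of 6514 bases in all. Cd68 lies on chromosome 11, Adgre1 and Trem2 on chromosome 17, Cx3cr1 on chromosome 9, Lyz2 on chromosome 10 and Mrc1 on chromosome 2. C1qb and C1qa are neighbours on the minus strand of chromosome 4, at 136880129 to 136886187 and 136895917 to 136898803. Lyz2 shares 15.4% of its 50-base words with Lyz1, the lysozyme gene of Paneth cells, so reads can be split between them or dropped. Csf1r shares 873 exonic bases with Hmgxb3 on the opposite strand, which had 420 to 852 reads per mouse. Whether strand was used in counting is not given in the sources used here, so that the Csf1r values are uncertain. The other 7 genes share no more than 1.06% of their words with any gene, and Gpnmb 0.0154%.

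RefSeq promoters were at hand for 7 of the 10 genes, as windows of 250 bases ending at the base before the start of the transcript. The windows of Gpnmb, Trem2 and Cd68 are shown because they differ in which letters of known response elements they hold, on a background in which TCDD acts through the AhR. Capitals mark the core of the dioxin response element (GCGTG, here as its reverse complement CACGC), a PU.1 core (GAGGAAG, here as CTTCCTC) and the AP-1 element (TGACTCA, here as TGAGTCA). Sequences are from RefSeq on GRCm38.p6 and read 5′ to 3′ on the strand of the gene.
Gpnmb, chr6:49036268-49036517, plus strand: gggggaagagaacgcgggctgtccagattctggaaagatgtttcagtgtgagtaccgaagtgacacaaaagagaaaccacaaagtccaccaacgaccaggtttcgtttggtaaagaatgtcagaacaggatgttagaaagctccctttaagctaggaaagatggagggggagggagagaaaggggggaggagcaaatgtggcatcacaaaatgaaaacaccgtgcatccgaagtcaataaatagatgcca
Trem2, chr17:48346151-48346400, plus strand: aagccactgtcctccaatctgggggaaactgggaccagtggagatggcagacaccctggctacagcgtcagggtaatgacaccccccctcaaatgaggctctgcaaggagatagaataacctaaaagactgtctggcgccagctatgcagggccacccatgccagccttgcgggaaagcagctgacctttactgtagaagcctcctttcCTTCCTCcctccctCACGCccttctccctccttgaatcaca
Cd68, chr11:69666171-69666420, minus strand: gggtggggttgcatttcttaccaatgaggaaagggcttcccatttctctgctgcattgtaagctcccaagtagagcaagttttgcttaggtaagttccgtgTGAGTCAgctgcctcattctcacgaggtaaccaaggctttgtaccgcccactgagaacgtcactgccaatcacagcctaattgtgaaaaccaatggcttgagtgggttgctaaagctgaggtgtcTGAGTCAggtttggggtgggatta

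The Gpnmb window held none of the 5 motifs searched on both strands. The dioxin response element core occurred in 28.3% of 32536 promoters of this length, and among the macrophage genes only in that of Trem2, 27 bases before the start. The CLEAR core (CACGTG), bound by MiT/TFE factors, was in 6.04% of all promoters and in none of the 7. The M-box core (CATGTG) was in 12.3% of all promoters and in those of C1qb and Mrc1. PU.1 is the lineage factor of macrophages, and its core was in 10.7% of all promoters, among them those of Trem2, where it lies 41 bases before the start, and Mrc1. The AP-1 element was in 4.45% of all promoters and, at 2 places, in that of Cd68, 149 and 24 bases before the start. These are matches of letters within a short window and not sites of binding.

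Per kilobase of exon, the levels over all 27 mice were ordered Lyz2, C1qa, C1qb, Cd68, Csf1r, Cx3cr1, Mrc1, Adgre1, Gpnmb and Trem2. Lyz2 stood first with 7.67 ± 2.92 RPKM (CPM per kilobase; SD, n = 27), above C1qa in each of the 27 mice. The neighbours C1qa and C1qb (2.53 ± 0.883 and 1.97 ± 0.794 RPKM) were closer than their spread, and so was Cx3cr1 to its neighbours Csf1r and Mrc1 (in the order Csf1r, Cx3cr1, Mrc1, 0.749 ± 0.208, 0.610 ± 0.183 and 0.499 ± 0.179 RPKM). Csf1r exceeded Cx3cr1 in 17 mice, and Cx3cr1 exceeded Mrc1 in 17. Gpnmb was in place 10 in vehicle-treated mice at 0.0614 RPKM and in place 7 at 30 μg/kg at 0.394 RPKM, between Mrc1 and Cx3cr1. There it was above Adgre1 in 2 of 3 mice, and in none of the mice from vehicle to 3 μg/kg.

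Gpnmb was higher at 30 μg/kg than in any other group. The vehicle-treated mice had 4, 3 and 5 reads, or 0.394, 0.316 and 0.491 CPM. At 30 μg/kg there were 29, 29 and 37 reads, or 2.09, 2.43 and 3.19 CPM. The 2 groups did not overlap, with all treated mice above vehicle as for 14.5% of the 16496 genes tested, and the lowest mouse at 30 μg/kg was also above every mouse at the other doses. At 10 μg/kg the 3 mice had 1.37, 0.257 and 2.01 CPM, of which 2 lay above the vehicle-treated mice and mouse 58 lay below them. From 0.01 to 3 μg/kg single mice had 1 to 15 reads, with the highest in mouse 41 at 1 μg/kg (1.19 CPM) and the other mice at 0.697 CPM or less.

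Relative to vehicle, the fitted log2 fold change of Gpnmb was 2.64 at 30 μg/kg (6.23-fold, standard error 0.58) and 1.59 at 10 μg/kg (standard error 0.62). At the lower doses it ran from -1.23 at 0.1 μg/kg, where the group had 5 reads in all, to 0.73 at 1 μg/kg, with standard errors of 0.68 to 0.87. When the index set entered the fit, it was 4.31 at 30 μg/kg, 3.26 at 10 μg/kg and, in place of 0.40, 2.08 at 3 μg/kg (standard errors 1.01, 1.02 and 1.07). With the reads of the mice pooled by group (95 against 12), the ratio of 30 μg/kg to vehicle at equal read depth was 6.36. Pooling leaves out the spread between mice. Within the second index set, Gpnmb at 30 μg/kg was above 3 μg/kg by a log2 fold change of 2.24 (standard error 0.54), and at 10 μg/kg by 1.18 (standard error 0.57). Each of the 3 mice at 30 μg/kg was above each of the 3 at 3 μg/kg (0.368, 0.686 and 0.543 CPM), as for 7.97% of the genes tested. The slope over dose rank was 0.37 log2 units per step (standard error 0.065).

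**Figure D1:**
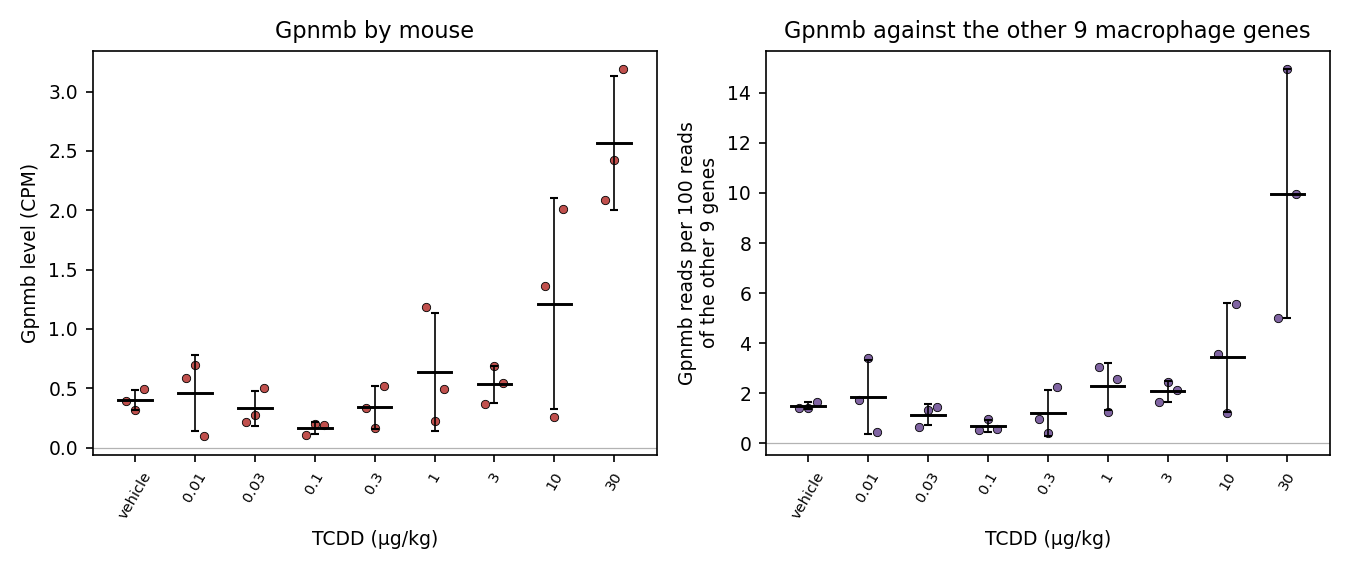
Gpnmb by TCDD dose, with 1 point per mouse, a bar at the mean of 3 mice and whiskers of 1 SD. Left, level in CPM, with the 30 μg/kg mice between 2.09 and 3.19; right, Gpnmb reads per 100 reads summed over the other 9 macrophage genes, with the 30 μg/kg mice between 5.01 and 14.9 and the mice from vehicle to 3 μg/kg at 3.40 or less.

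At 30 μg/kg the other 9 genes differed less from vehicle than Gpnmb did, and in both directions. Of the 9 genes, 7 had a fitted change above 0 and 2 below 0 at 30 μg/kg, but Adgre1, Lyz2 and Mrc1 were below 0 without mouse 65 (-0.45, -0.43 and -0.52) and Cd68 without mouse 67 (-0.048). Under alternatives that left out no mouse, the lowest values of Adgre1, Lyz2 and Mrc1 were also below 0 (-0.14, -0.097 and -0.080). With an index set term, the tested genes of the 9 were between -0.60 (Cd68) and 2.70 (C1qb), with Mrc1, Lyz2, Csf1r and Adgre1 at 1.42, 1.41, 1.33 and 1.11. Without that term, the 8 that passed the filter on low counts had log2 fold changes between -0.95 (Cx3cr1) and 1.15 (C1qb) with a median of 0.12. At 10 μg/kg these 8 lay between -0.14 and 0.72 (median 0.27), and at 3 μg/kg between -0.65 and 0.81 (median -0.036). With an index set term the 8 lay between -0.86 (Cd68) and 2.27 (C1qb) at 10 μg/kg and between -1.06 (Cd68) and 2.36 (C1qb) at 3 μg/kg, so that Cx3cr1 and Mrc1 at 10 μg/kg (0.25 and 1.33) and Lyz2 and Mrc1 at 3 μg/kg turned from below to above 0. Over all genes tested the median was -0.0022 at 30 μg/kg. Each mouse's 9 genes, scaled to their vehicle means, averaged 0.705 to 1.46 at 30 μg/kg and 0.901 to 1.09 in vehicle-treated mice, so that the mice at 30 μg/kg lay on both sides of the vehicle-treated ones. Trem2 did not pass the filter, and Gpnmb reached its minimum of 0.858 CPM in 6 mice, namely 3 given 30, 2 given 10 and 1 given 1 μg/kg.

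Set against the other 9 genes read for read, Gpnmb stood out in each mouse at 30 μg/kg. Vehicle-treated mice had 1.41, 1.42 and 1.66 Gpnmb reads per 100 reads of the other 9 genes, and the mice at 30 μg/kg had 5.01, 14.9 and 9.95. Over the 21 mice from vehicle to 3 μg/kg the ratio ran from 0.411 to 3.40, with a median of 1.42. All 3 mice at 30 μg/kg and 2 of the 3 at 10 μg/kg (3.56 and 5.54) lay above that range, and mouse 58 at 10 μg/kg (1.19) lay within it. Mouse 41, with the most Gpnmb reads at 1 μg/kg, had a ratio of 3.04 and the other macrophage genes at 1.42 times their vehicle mean.

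Mouse 66 at 30 μg/kg had the widest gap between Gpnmb and the rest. It held 29 Gpnmb reads, yet 3 of Adgre1, 44 of Lyz2 and 12 of Cx3cr1. Its 9 other genes averaged 0.705 of their vehicle mean, and its Gpnmb was 6.06 times its own. In mouse 65 of the same group the 9 genes averaged 1.46 times the vehicle mean and Gpnmb 5.21 times, and in mouse 67 they averaged 1.27 and 7.97 times. The order of the 3 mice by Gpnmb was therefore not their order by the other 9 genes.

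With the mean log2 CPM of the other 9 genes as a covariate, the log2 fold change of Gpnmb at 30 μg/kg was 2.64 (standard error 0.54). This restates the contrast by which Gpnmb was chosen and is given as a description. With a separate list of 17 tested macrophage genes as the covariate it was 2.09 (standard error 0.59). A covariate of 8 smooth muscle genes, added after the data were seen, gave 1.94 (standard error 0.61), and 1 of 8 adipocyte genes gave 2.49 (standard error 0.66).

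Among the receptors, Csf1r had 3.54, 2.74 and 5.30 CPM in the vehicle-treated mice and 6.26, 4.10 and 5.69 CPM at 30 μg/kg. The groups overlapped, with 2 of 3 treated mice above the highest vehicle-treated mouse, and the log2 fold change was 0.47 (standard error 0.33). Cx3cr1 went the other way from Gpnmb. It had 2.85, 2.53 and 4.02 CPM in vehicle and 1.87, 1.00 and 1.98 CPM at 30 μg/kg, where every mouse was below every vehicle-treated one, as for 15.2% of the genes tested. The log2 fold change was -0.95 (standard error 0.32). At 3 μg/kg Cx3cr1 had 1.47, 2.83 and 1.71 CPM (log2 fold change and standard error -0.65 ± 0.32), and at 10 μg/kg 2.22, 3.08 and 3.21 CPM (-0.14 ± 0.30), so that the value at 10 μg/kg was near that of vehicle.

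Trem2 was near the floor of detection throughout, with 0 to 7 reads per mouse and 3 mice at 0. Its 3 vehicle-treated mice had 7, 4 and 3 reads and the mice at 30 μg/kg 1, 4 and 3. From the summed reads, 8 against 14, the ratio was 0.459 with an exact 95% interval of 0.167 to 1.17, which covers at most the error of counting and not the spread between mice. Gpnmb and Trem2 are both known from lipid-associated macrophages.

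The surface markers Adgre1 and Mrc1 overlapped between vehicle and 30 μg/kg. Adgre1 had 0.787, 0.632 and 1.37 CPM in vehicle and 1.65, 0.251 and 1.12 CPM at 30 μg/kg, a log2 fold change of 0.13 (standard error 0.55). Mrc1 had 4.13, 2.64 and 3.83 CPM in vehicle and 5.83, 1.84 and 3.10 CPM at 30 μg/kg, a log2 fold change of 0.035 (standard error 0.44). For both genes the treated mice lay on either side of the vehicle-treated ones.

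The lysosomal gene Cd68 was at 1.48, 1.48 and 1.47 CPM in vehicle and 1.65, 1.17 and 1.98 CPM at 30 μg/kg (0.12 on the log2 scale with a standard error of 0.30). At 3 μg/kg its 3 mice (1.38, 1.11 and 1.01 CPM) were all below the vehicle-treated ones, as for 11.5% of the genes tested, by 0.34 on the log2 scale (standard error 0.31), which was not so at 10 or 30 μg/kg. Lyz2 had 11.8, 7.59 and 9.82 CPM in vehicle and 17.0, 3.68 and 10.8 CPM at 30 μg/kg, a log2 fold change of 0.11 (standard error 0.45) over a more than 4-fold range within the treated group. Lyz1, from which its reads cannot be wholly separated, had 3 to 82 reads in vehicle and a log2 fold change of 0.15 (standard error 0.82, adjusted p = 0.931, edgeR).

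The complement genes were those that came nearest to Gpnmb in direction. C1qb had 1.18, 1.90 and 1.37 CPM in vehicle, 2.67, 2.57 and 2.56 CPM at 3 μg/kg, 2.73, 1.80 and 2.76 CPM at 10 μg/kg and 4.46, 1.84 and 3.53 CPM at 30 μg/kg. Its log2 fold changes were 0.81, 0.72 and 1.15 (standard errors 0.42, 0.42 and 0.41), and every mouse at 3 μg/kg lay above vehicle, as for 13.1% of the genes tested, while mouse 66 at 30 μg/kg and mouse 58 at 10 μg/kg did not. C1qa had 1.38, 2.32 and 2.06 CPM in vehicle and 2.88, 2.01 and 3.62 CPM at 30 μg/kg, with overlapping groups and a log2 fold change of 0.56 (standard error 0.44). At 0.03 μg/kg C1qa was already at 3.06, 2.32 and 4.08 CPM (log2 fold change 0.71, standard error 0.44). Between 30 and 3 μg/kg, C1qb differed by 0.34 (standard error 0.38) on the log2 scale, against 2.24 for Gpnmb.

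**Figure D2:**
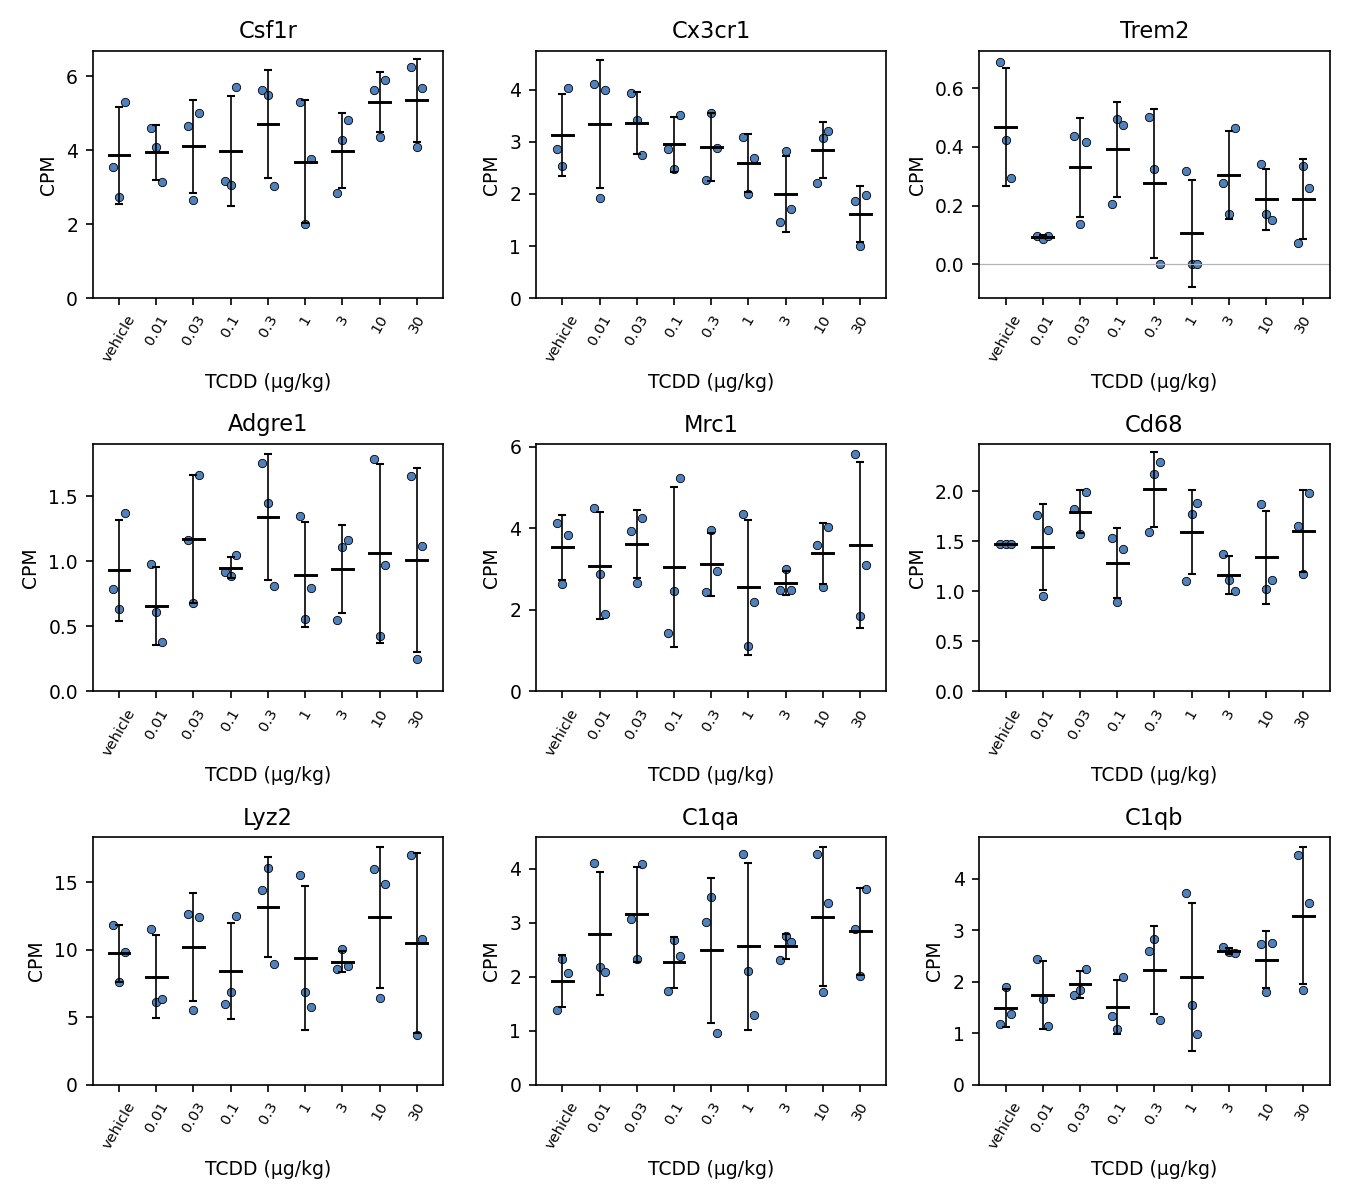
Levels of the 9 other macrophage genes in CPM by TCDD dose, with 1 point per mouse, a bar at the mean of 3 mice and whiskers of 1 SD. The 3 mice at 30 μg/kg spread over the vehicle-treated mice in most panels, while Cx3cr1 lay between 1.00 and 1.98 CPM, below vehicle.

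**Figure D3:**
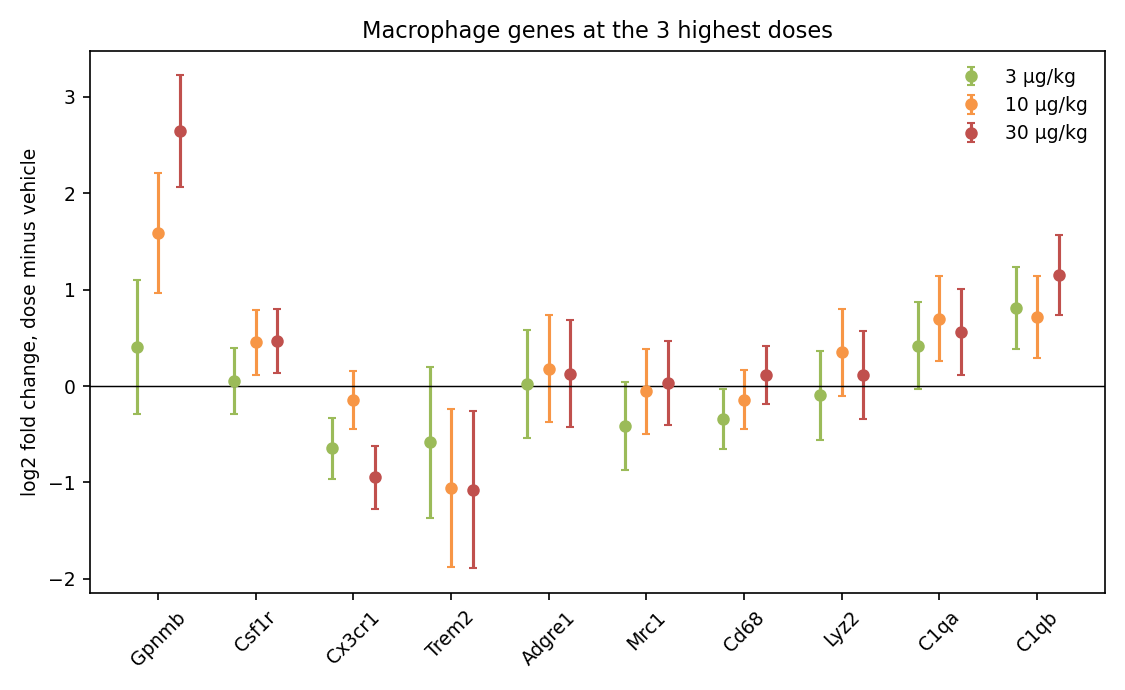
Fitted log2 fold changes of the 10 genes at 3, 10 and 30 μg/kg relative to vehicle, with bars of 1 standard error; Trem2 is from a fit without the filter on low counts. At 30 μg/kg Gpnmb lies at 2.64, C1qb at 1.15 and Cx3cr1 at -0.95.

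As a description only, since the same contrasts chose the genes, the calls of the fit were as follows. Of the 9 genes that passed the filter, Gpnmb, which reached its minimum in 0 vehicle-treated mice, was called higher at 30 μg/kg by the edgeR fit (past both an adjusted p of 0.05 and a change of 1.5-fold) and none lower, where 2.95% of 16496 genes tested were called higher and 3.21% lower. None was called at 10 μg/kg (0.812% of genes higher, 0.97% lower), at 3 μg/kg (0.697% in either direction) or between 30 and 3 μg/kg (0.461%). The slope over dose rank passed for Gpnmb and C1qb upward and for Cx3cr1 downward, where it passed for 23.4% of genes. The choice of the genes and the filter used these same values, so nothing is read from the counts.

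The macrophage genes other than Gpnmb tended to move together from mouse to mouse. Over 27 mice, the 28 pairs among the 8 genes without Gpnmb and Trem2 had a median Pearson correlation of log2 CPM of 0.46 (range -0.23 to 0.83), and 0.52 after the group means were subtracted. Adgre1 with Lyz2 (0.83) and C1qa with C1qb (0.73) were among the closest. Gpnmb correlated with these 8 genes between -0.47 (Cx3cr1) and 0.58 (C1qb), with a median of 0.27, and within groups with a median of 0.40. The points share library depth and come from 9 dose groups, so these values are a description only.

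The genes most like Gpnmb over the 27 mice held none of the 7 other macrophage genes that were ranked, as Adgre1 and Trem2 were too low for it. Among 14566 genes with a mean of at least 1 CPM, the 10 with the highest correlation of log2 CPM included Fam20c, Oplah, Ptges, Wfikkn2, Oxa1l, Arhgap10, Acadl, Gpd1l and Lgals4, with r from 0.82 to 0.79 for these 9. Lgals4, a galectin of the gut epithelium, was in place 10. The AhR target Ahrr came in place 17 (r = 0.77), and C1qc, the third chain of C1q, came in place 344 (r = 0.62) and C1qb in place 547. After the group means were subtracted the 10 closest were Susd2, Kcnj8, Syce2, Psmg2, Xrcc6, Fam149a, Slit3, Hip1, Flot2 and Haus2 (r from 0.82 to 0.68), none of which is in the first 10.

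The known partners of the macrophage genes were tested, since they did not enter the choice of the 10 genes. Their list, like the others, was drawn up with earlier results of these data known. Of 12 partners 10 passed the filter, 1 was called higher at 30 μg/kg and 0 lower, with a median log2 fold change of 0.19. The 1 called was C1qc, whose product joins those of C1qa and C1qb in C1q. It had 10, 15 and 18 reads in the vehicle-treated mice (1.43 ± 0.358 CPM, SD, n = 3) and 20, 48 and 59 at 30 μg/kg (3.35 ± 1.45 CPM), and was 2.33-fold higher (log2 fold change 1.22, standard error 0.34, adjusted p = 0.025). The call was lost without vehicle replicate 2 or 3 and without TCDD replicate 65 or 67, with adjusted p up to 0.1 (edgeR), while the log2 fold change stayed between 1.01 and 1.54. It was also lost with an index set term (log2 fold change 1.82, adjusted p = 0.0871, edgeR), with only the compared groups in the fit (adjusted p = 0.103, edgeR) and with limma voom. C1qc was similar at 3 and 10 μg/kg, with log2 fold changes of 1.00 and 1.14 (adjusted p = 0.155 and 0.0722, edgeR). C1s1, a protease of the C1 complex, had a log2 fold change of 1.31 (standard error 0.44, adjusted p = 0.0592, edgeR) and C1ra, its partner protease, 0.11 (standard error 0.36).

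The ligands of the receptors were not called. Csf1 had a log2 fold change of 0.23 (standard error 0.24) and Il34 0.33 (standard error 0.41) at 30 μg/kg. Cx3cl1, which encodes fractalkine, was at 97.0 ± 10.3 CPM in vehicle and 91.2 ± 12.0 CPM at 30 μg/kg (SD, n = 3 each; log2 fold change -0.089, standard error 0.12, adjusted p = 0.671, edgeR), so that its level was near that of vehicle where Cx3cr1 was lower. Of the partners proposed for the Gpnmb protein, Sdc4, a heparan sulfate proteoglycan, was at 367 ± 27.5 CPM in vehicle and 291 ± 31.8 CPM at 30 μg/kg (edgeR log2 fold change -0.34 with a standard error of 0.10 and adjusted p = 0.0354), short of the 1.5-fold threshold. Cd44, the hyaluronan receptor, had a log2 fold change of -0.59 (standard error 0.26, adjusted p = 0.14, edgeR). By the slope over dose rank 2 of the 10 partners passed upward (C1qc and C1s1) and 2 downward (Sdc4 and Cd44), beside 23.4% over all genes in either direction. Tyrobp, the adaptor through which Trem2 signals, had 18 reads in vehicle and 20 at 30 μg/kg over 3 mice each and did not pass the filter. Hcst, a second adaptor, had a log2 fold change of 0.88 (standard error 0.64). Tmem130, a paralog of Gpnmb, did not pass the filter either and had 3 reads in vehicle and 9 to 17 in each treated group.

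Other macrophage genes were tested as a list of 25, of which 17 passed the filter. C1qc was called higher and none lower at 30 μg/kg, beside 2.95% higher and 3.21% lower over all genes. The median log2 fold change was 0.17 against -0.0022 over all genes. At 10 and 3 μg/kg 0 were called. Fcgr3, an Fc receptor, had a log2 fold change of 1.47 (standard error 0.55, adjusted p = 0.0883, edgeR). Ctss and Mertk, with 154 and 91.7 CPM on average, make up most of the summed level of the list, which was 304 to 364 CPM in vehicle and 347 to 376 CPM at 30 μg/kg. Aif1, which passed no filter, had 16 reads in vehicle and 12 at 30 μg/kg.

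Genes of lipid-associated macrophages, among which Gpnmb is usually counted, had a median log2 fold change of 0.13 at 30 μg/kg. Beside 2.95% higher and 3.21% lower over all genes, 3 of the 16 tested genes were called higher and 0 lower. The 3 were Fabp4 (log2 fold change 2.50, standard error 0.81, adjusted p = 0.0489), Apoe (0.91, standard error 0.29, adjusted p = 0.0459) and Lgals3 (0.61, standard error 0.14, adjusted p = 0.00576; edgeR in each case). Fabp4 is the fatty acid binding protein of adipocytes, and Lgals3, at 1010 CPM on average, is a galectin abundant in gut epithelium. The call of Lgals3 was lost without TCDD replicate 66, that of Fabp4 in 4 and that of Apoe in 5 of the 6 fits that left out 1 mouse. With an index set term the calls of Lgals3 and Fabp4 were lost, with only the compared groups those of Apoe and Fabp4, and with limma voom all 3. Spp1, a defining gene of these cells, had 2 reads in each of the 2 groups, and Mmp12 had a log2 fold change of -0.54 (standard error 0.21, adjusted p = 0.102, edgeR). Cd36 and Plin2 of the same list had 1.72 and 0.53 (standard errors 0.71 and 0.23) and were not called, and Plin2 and Lgals3 passed the slope over dose rank upward. That slope passed for 23.4% of all genes in either direction.

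Genes of the MiT/TFE factors and the lysosome were not called at 30 μg/kg in either direction, with 27 of 28 tested and a median log2 fold change of -0.013. The factors themselves, Mitf, Tfeb and Tfe3, had log2 fold changes of 0.19, 0.29 and -0.013 (standard errors 0.27, 0.14 and 0.092). Psap and Lamp1, with 574 and 283 CPM the most abundant of the list, had log2 fold changes of 0.26 and 0.052 (standard errors 0.11 and 0.071). At an adjusted p under 0.05 without the fold threshold, only Neu1, a lysosomal sialidase, passed, and it was lower (log2 fold change -0.48, standard error 0.16, adjusted p = 0.0467, edgeR). By the slope over dose rank 5 genes passed upward (Tfeb, Atp6v0d1, Atp6v1h, Atp6v1b2 and Psap) and Gla downward, out of 27 and beside the 23.4% over all genes.

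Monocyte and activation genes gave no call at 30 μg/kg. Of 10 genes of recruited monocytes 9 were tested and 0 were called, with a median log2 fold change of 0.26; the most abundant, Plac8 and Thbs1, had -0.089 and 0.26 (standard errors 0.14 and 0.16). Ly6c2 and Ccr2, which define blood monocytes, had -0.64 and -0.76 (standard errors 0.63 each), while Hp, Vcan, F13a1 and Fn1 of the same list had 2.63, 1.39, 0.73 and 0.72 (standard errors 1.01, 0.56, 0.62 and 0.39). Of 14 activation genes 4 passed the filter, 0 were called and the median was -1.32, with Nos2 at -1.11 (standard error 0.69) and Tnf at -1.54 (standard error 0.53, adjusted p = 0.0633, edgeR). Dendritic cell genes had 0 of 7 called and a median of -0.046, with Irf8 at -0.0064 (standard error 0.10) and Cd83 at 0.0045 (standard error 0.28).

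Markers of the other cell types in which Gpnmb is abundant were at or near 0 for some genes and readily counted for others. Of 7 melanocyte genes 3 passed the filter and 0 were called, and Mlana, Tyrp1 and Slc45a2 had 0 reads in the vehicle-treated mice and 1, 0 and 0 at 30 μg/kg. Tyr and Pmel, the most abundant of the list at 1.75 and 1.09 CPM over all mice, had log2 fold changes of -0.48 and 0.15 (standard errors 0.37 and 0.41). Of 7 osteoclast genes 3 passed and 0 were called, with 0 reads of Calcr in both groups and 1 of Dcstamp at 30 μg/kg. Acp5 (122 CPM over all mice) and Nfatc1, which passed, had log2 fold changes of 0.072 and 0.23 (standard errors 0.087 and 0.14).

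Some markers of the tissue under the epithelium were called higher at the dose at which Gpnmb was high, and their part in the Gpnmb value was not tested beyond the covariates above. Over all genes, 2.95% were called higher at 30 μg/kg. Of 7 adipocyte genes tested 3 were called higher at 30 μg/kg (Cfd, Plin4 and Cidec, with log2 fold changes of 3.03, 2.96 and 1.80 and standard errors of 0.94, 0.80 and 0.43), and the list had a median of 2.28. Of 6 endothelial genes Cdh5 (2.34, standard error 0.39) and Kdr (1.26, standard error 0.37) were called higher, of 3 glial and neuronal genes Uchl1 (2.43, standard error 0.63) and Ret (1.13, standard error 0.22), and of 7 fibroblast genes Dcn (1.51, standard error 0.47). The 8 smooth muscle genes had a median log2 fold change of 2.34 with 0 called, but 7 were called with an index set term and 7 without a filter, 3 without TCDD replicate 66 and 5 by the slope over dose rank (Myh11, Tagln, Des, Cnn1 and Lmod1). Mylk and Myh11 had 0.49 and 2.49 (standard errors 0.23 and 0.86). Of the 8 calls in these lists, only those of Cdh5 and Ret held in each of the 6 fits that left out 1 mouse. With an index set term and with only the compared groups the 3 adipocyte calls were lost, with DESeq2 that of Cfd, and with limma voom all but that of Cdh5. Epithelial genes had 0 of 11 called, with Car1 at -0.16 and Krt8 at 0.21 (standard errors 0.31 and 0.12), while 5 passed the slope upward (Epcam, Vil1, Krt8, Krt19 and Krt20). The slope counts of smooth muscle and epithelial genes stand beside 23.4% over all genes in either direction.

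At 30 μg/kg the 3 mice differed more in these summed markers than in Gpnmb, which was not so at 10 μg/kg, where smooth muscle genes held 271 to 384 CPM and Gpnmb 0.257 to 2.01 CPM. The summed smooth muscle genes held 170, 177 and 151 CPM in vehicle and 411, 210 and 849 CPM in mice 65, 66 and 67 at 30 μg/kg, and the endothelial genes 20.6, 18.6 and 17.9 CPM in vehicle and 33.7, 20.3 and 42.4 CPM. The adipocyte genes held 7.38, 22.7 and 25.4 CPM in vehicle and 25.1, 59.5 and 201 CPM at 30 μg/kg. At 0.01 μg/kg they held 54.7 to 120 CPM, and Gpnmb there was at 0.0949 to 0.697 CPM. In mouse 66, with endothelial genes inside the range of vehicle and smooth muscle genes at 210 CPM, Gpnmb was at 2.43 CPM, between the other 2 mice. In mouse 67, the highest for smooth muscle, adipocyte and endothelial genes, Gpnmb was also highest at 3.19 CPM.

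Lymphocyte, neutrophil and mast cell genes gave no call at 30 μg/kg. The medians were -0.28 over 6 T cell genes, with Cd8a and Lck at -0.69 and 0.0099 (standard errors 0.34 and 0.28), and -0.52 over 6 B cell genes, with Ms4a1 and Cd22 at -0.22 and -0.46 (standard errors 0.26 and 0.64). Of 8 neutrophil genes 3 passed the filter, with Ly6g at -1.15 and Cxcr2 at -0.19 (standard errors 0.81 and 0.23), and S100a8 and S100a9 did not pass. Of the 2 mast cell genes tested, Kit had 0.27 and Mcpt1 -3.20 (standard errors 0.17 and 1.46).

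**Figure D4:**
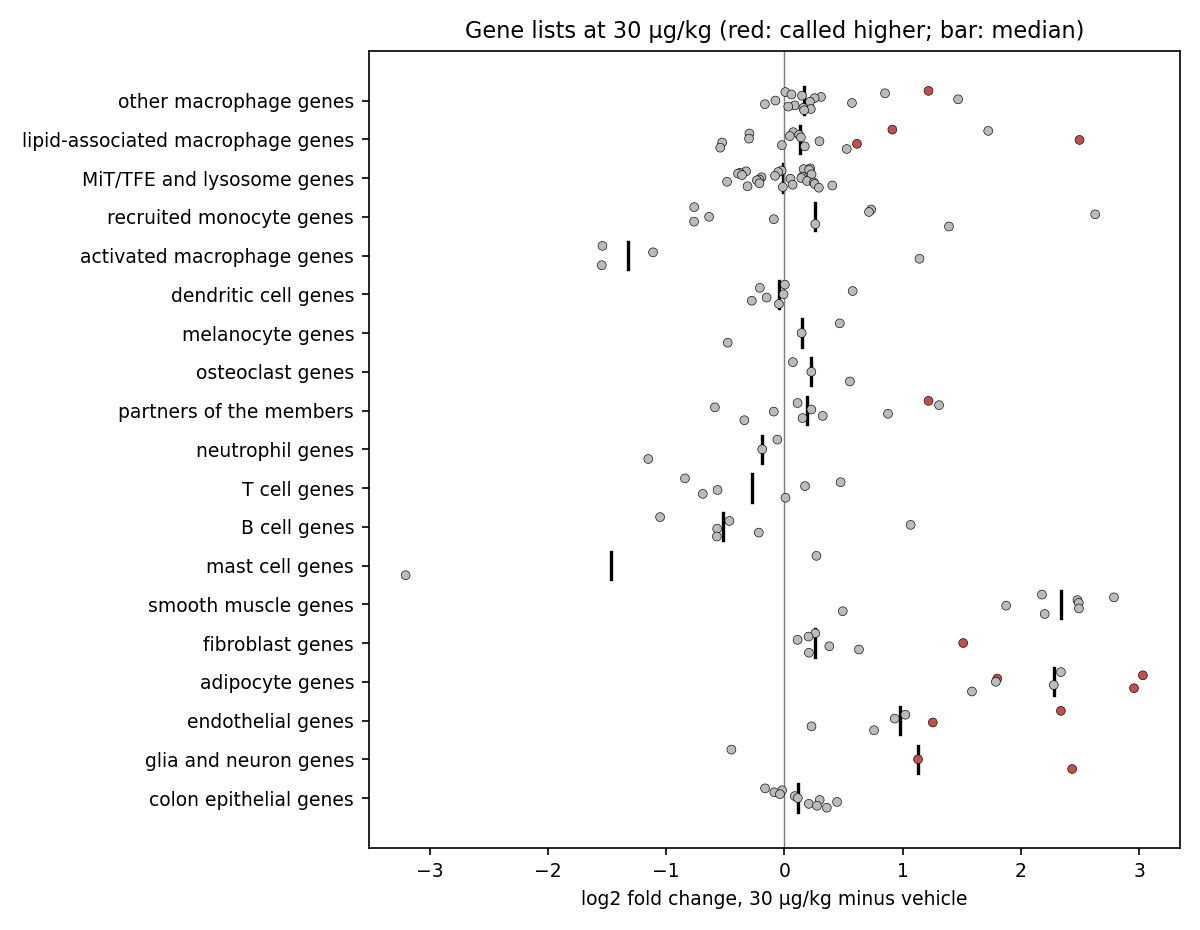
Log2 fold changes at 30 μg/kg relative to vehicle of the tested genes of 19 lists, with 1 point per gene, red for genes called higher and a vertical bar at the median of each list. Other macrophage, lipid-associated macrophage and lysosomal genes centre near 0 (medians 0.17, 0.13 and -0.013), and activation and mast cell genes at -1.32 and -1.47. The smooth muscle, adipocyte, glia and neuron, and endothelial lists lie to the right (2.34, 2.28, 1.13 and 0.98).

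The AhR targets were tested as a check of exposure. All 5 were called higher at 30 μg/kg, with Ahrr, the AhR repressor, at a log2 fold change of 6.21 (standard error 0.23, adjusted p = 4.79e-15, edgeR), Tiparp at 1.04 (standard error 0.16) and Nqo1 at 0.97 (standard error 0.23). With an index set term the calls of Tiparp and Nqo1 were lost, and that of Nqo1 also with limma voom and without vehicle replicate 2 or TCDD replicate 66. Cyp1a1 and Cyp1b1, the xenobiotic-metabolizing enzymes, and Ahrr were called at 10 and 3 μg/kg as well, but at 3 μg/kg an index set term ended the calls of Cyp1b1 and Ahrr, and limma voom those of Cyp1a1 and Cyp1b1. The summed level of the 5 was 74.7 to 88.2 CPM in vehicle, 154 to 245 CPM at 3 μg/kg, 1202 to 1664 CPM at 10 μg/kg and 2538 to 3044 CPM at 30 μg/kg. Gpnmb was at 0.532 ± 0.159 CPM at 3 μg/kg (SD, n = 3), and 0.400 ± 0.0875 CPM in vehicle, while the summed AhR targets at 3 μg/kg were above vehicle in every mouse.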

How the data were processed

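RNA-seq of colonic epithelium scrapings from 27 mice was analysed from the tables the authors deposited, which hold raw read counts per gene and mouse that were not normalized. The submitters' processing notes name FastQC 0.11.3, Trimmomatic 0.33, TopHat2 2.1.0, SAMtools 1.2.0, HTSeq 0.6.1, DESeq and the GRCm38 build. The annotation release and the use of strand are not given in the sources used here. Reads on no feature (29.1 to 33.3% of each table) and reads with several alignments (30.7 to 37.1%) were left out, so genes with near copies can be undercounted. No pair of mice within a group agreed within sampling noise (lowest χ2 over its degrees of freedom 5.32), and each mouse was 1 replicate. The labels do not say whether mice shared a cage.

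Symbols, exon lengths and positions came from GENCODE M21 on GRCm38. Genes were kept by filterByExpr (edgeR 4.0.16, R 4.3.3, minimum count 10), which left 16496, and all 9 groups entered 1 TMM-scaled quasi-likelihood fit with Benjamini-Hochberg adjustment over all genes. A gene was called past both an adjusted p of 0.05 and a change of 1.5-fold, or at the adjusted p alone for the slope over dose rank. Correlations used log2 CPM with a prior count of 2. On simulated counts with 200 changed genes, made from these means and library sizes for 30 μg/kg, 92% of 4-fold and 65% of 2-fold changes were recovered with 5 other genes called among 16235.

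The 10 genes and the lists were chosen with earlier results of these data known. Genes named were the 10, all their partners, up to 5 called genes of each other list by size of change or else the 2 most abundant, and the 10 closest to Gpnmb by correlation over mice and within groups, of which 1 is not reported here. Fcgr3, Aif1, Spp1, Mmp12, Cd36, Plin2, Neu1, Mitf, Tfeb, Tfe3, Ly6c2, Ccr2, Hp, Vcan, F13a1, Fn1, Tnf, Mlana, Tyrp1, Slc45a2, Calcr, Dcstamp, S100a8, S100a9 and Epcam, and those passing the slope alone, were added after their values were seen. Alternatives were RLE scaling, DESeq2 1.42.0, limma voom 3.58.1 (posterior of 0.8 or more), no filter, only the groups compared, an index set term, the adjusted p alone and each mouse left out.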

Additional observations from a re-analysis of the deposited data

How the results depend on the processing

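The log2 fold change of Gpnmb at 30 μg/kg lay between 2.46 and 2.81 with each of the 6 mice left out, and at 10 μg/kg between 0.996 and 2.05. With the other 9 genes as a covariate it lay between 2.32 (without TCDD replicate 66) and 2.94 (without TCDD replicate 65) at 30 μg/kg, and was 2.09 with the list of other macrophage genes and 1.94 with smooth muscle genes in their place. A term for the index set moved it to 4.31 at 30, 3.26 at 10 and 2.08 at 3 μg/kg (standard errors 1.01 to 1.07). That term rests on the 3 mice at 1 μg/kg, the only dose with mice of both sets, among which mouse 41, alone in the first set, was high for most macrophage genes. It also moved C1qb to 2.70, C1qa to 1.90, Mrc1 to 1.42, Lyz2 to 1.41, Csf1r to 1.33, Adgre1 to 1.11, Cx3cr1 to -0.55 and Cd68 to -0.60 at 30 μg/kg (standard errors 0.53 to 0.97), so that the small changes given for most of these genes rest on a fit without it.

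With 1 mouse left out, Adgre1, Lyz2 and Mrc1 ran from -0.45 (without mouse 65) to 0.57 (without mouse 66), from -0.43 to 0.51 and from -0.52 to 0.35 at 30 μg/kg, with the same mice at either end. Without mouse 65 these 3 fell below 0, Adgre1 and Mrc1 without vehicle replicate 3 were -0.077 and -0.13, Lyz2 was -0.036, and Cd68 was -0.048 without mouse 67. Of the 10 genes most like Gpnmb by Pearson's r, 4 were among the first 10 by Spearman's rho.

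The 17 list genes called at 30 μg/kg became 30 without a filter, 5 with limma voom, and 7 (without vehicle replicate 2) to 20 (without TCDD replicate 66) with 1 mouse left out. Without vehicle replicate 4 they were 11 and without TCDD replicate 67 they were 9. Over all genes, 1016 were called at 30, 294 at 10 and 115 at 3 μg/kg. With the adjusted p alone these were 1818, 532 and 231, and with limma voom 218, 95 and 53. With only the groups compared they were 662 at 30 and 230 at 3 μg/kg, with an index set term 58 at 10 and 2 at 3 μg/kg, and at 3 μg/kg 180 without a filter and 198 with DESeq2. With 1 mouse left out the counts ran from 590 (without vehicle replicate 2) to 1084 (without TCDD replicate 65) at 30 μg/kg, with 664 without vehicle replicate 4 and 616 without TCDD replicate 67, and from 163, 170 and 187 (without vehicle replicates 2, 4 and 3) to 228 (without TCDD replicate 58) at 10 μg/kg. The cause of these shifts was not tested.

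No paired analysis was possible because replicate numbers differ between all groups. Depth limits Trem2 most, with 0 to 7 reads per mouse.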
